A study of Mus musculus with 6 samples.

Results

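Bone morphogenetic protein (BMP) signalling was followed through 9 genes in the skin of Hoxc13 mutant and wild type mice. The genes were chosen by name as BMP ligands (Bmp2, Bmp4, Bmp7 and Bmp8a), a receptor (Bmpr1a), an antagonist (Nog) and response genes (Id1, Id2 and Id3). Of 10 genes so listed, 9 had a probe set among the 15644 named genes of the arrays, and Bmp6 was not analysed here. The mutant group held 3 skin samples of male C57BL/6 mice labelled as knockout for the targeted allele Hoxc13tm1Mrc. The wild type group held 3 skin samples of the same sex and background, and all 6 titles give 5 dpn. Whole dissected skin was used, so follicles, epidermis, dermis, fat and muscle were measured together. The sources used here do not say whether the targeted allele was present in one or both copies, nor which part of the gene it removes. Values are log2 levels after robust multi-array averaging (RMA), which corrects background and makes the arrays share a distribution. A difference of 1 is therefore a 2-fold difference. The level of one probe set cannot be set against that of another.

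BMPs are secreted dimers that bind type I and type II serine/threonine kinase receptors. The receptors phosphorylate Smad1, Smad5 and Smad9, which join Smad4 and switch on target genes such as the Id genes, whose products block basic helix-loop-helix factors. In the growing hair follicle, BMP signalling through Bmpr1a in the matrix is known to be needed for differentiation of the hair shaft and inner root sheath, while Noggin from the mesenchyme opposes it and lets follicles form and grow. Hoxc13 is a homeobox factor of the same matrix and shaft precursor cells.

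Start site windows were available for 5 of the 9 measured genes, and those of Bmp8a, Bmp4, Id2 and Id3 are shown because Bmp8a and Bmp4 had differences of opposite sign and the Id genes are direct Smad targets. Each runs from 250 bases before to 50 bases after the annotated start (RefSeq, GRCm38.p6). Capitals mark GTCT or its reverse complement AGAC, the short Smad box, and GGCGCC, the core of GC-rich BMP elements.
Bmp8a: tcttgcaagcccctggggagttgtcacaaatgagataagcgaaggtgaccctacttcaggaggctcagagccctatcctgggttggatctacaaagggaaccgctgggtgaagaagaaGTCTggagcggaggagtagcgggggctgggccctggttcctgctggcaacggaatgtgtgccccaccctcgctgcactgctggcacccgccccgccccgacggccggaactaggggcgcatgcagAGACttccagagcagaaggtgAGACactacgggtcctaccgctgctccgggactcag
Bmp4: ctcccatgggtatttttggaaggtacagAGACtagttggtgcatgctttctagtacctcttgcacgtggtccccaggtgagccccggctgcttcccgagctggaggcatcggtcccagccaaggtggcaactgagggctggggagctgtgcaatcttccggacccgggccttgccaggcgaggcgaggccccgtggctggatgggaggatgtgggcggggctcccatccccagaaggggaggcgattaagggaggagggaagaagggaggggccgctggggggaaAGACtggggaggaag
Id2: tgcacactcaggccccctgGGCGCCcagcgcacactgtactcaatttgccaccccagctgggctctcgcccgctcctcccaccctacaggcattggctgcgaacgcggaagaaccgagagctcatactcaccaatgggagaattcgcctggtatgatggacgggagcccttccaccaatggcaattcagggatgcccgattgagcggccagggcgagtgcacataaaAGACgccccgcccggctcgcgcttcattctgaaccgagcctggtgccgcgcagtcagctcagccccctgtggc
Id3: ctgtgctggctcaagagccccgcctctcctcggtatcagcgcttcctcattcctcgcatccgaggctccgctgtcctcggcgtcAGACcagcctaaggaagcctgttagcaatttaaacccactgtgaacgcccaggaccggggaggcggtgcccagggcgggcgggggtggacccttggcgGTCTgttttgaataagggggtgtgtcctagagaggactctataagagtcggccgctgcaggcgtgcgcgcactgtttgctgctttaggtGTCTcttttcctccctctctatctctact
The windows lie at chr4:123343203-123343502 (minus strand) for Bmp8a, chr14:46390620-46390919 (minus) for Bmp4, chr12:25096043-25096342 (minus) for Id2 and chr4:136143572-136143871 (plus) for Id3. The Smad box occurred 3 times in the Bmp8a window, 2 times in that of Bmp4, 1 time in that of Id2 and 3 times in that of Id3, and 88.0% of all 32851 windows of this length held it on either strand. GGCGCC was found 1 time in Id2 and 1 time in Bmpr1a, against 11.9% of all windows, and in none of the other 3. TTTAT (either strand), a core bound by homeodomain proteins of the posterior Hox class, was found in Id2 alone of the 5 windows, where it directly precedes the marked Smad box without overlap, and 40.0% of all windows held it. These matches are letters in a window and not measured binding.

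The Hoxc13 probe set read 8.95, 8.75 and 9.74 on mutant arrays 1, 2 and 3, against 9.63, 9.81 and 9.83 in wild type, and did not pass the test (-0.61, SE 0.23, limma adjusted p = 0.293). Without mutant replicate 3, whose value lay inside the wild type range, it passed (-0.90, limma adjusted p = 0.00114), as it did with array weights (-0.83, limma adjusted p = 0.00878). The position of its probes relative to the targeted part is unknown here, so this level checks no label. Keratins and other markers of the hair shaft were low on every mutant array (list means 5.44 to 6.00, against 12.01 to 12.36 in wild type). Mutant replicate 3 stood apart, with correlations of 0.989 and 0.990 to the other mutant arrays, which correlated at 0.997, across probe sets that are not independent replicates. Results are therefore given with and without it. The epidermal markers Krt5, Krt14, Krt1, Krt10, Lor, Flg, Trp63 and Dsg1a were all high, with list means of 12.54 to 12.63 in mutant and 12.39 to 12.51 in wild type skin. Xist read 11.15 to 11.67 and 6 Y-linked probe sets 2.98 to 4.89 on all arrays, which goes against the label male. The Y-linked range serves here as a mark of background, and its values above 4.18 come from Usp9y alone. Of 16331 probe sets, limma with Benjamini-Hochberg adjustment called 2.08% at an adjusted p under 0.05, 0.478% higher and 1.6% lower in mutant skin. The design text calls the samples independent without naming separate animals, and the p-values measure the spread between samples, which may be partly technical.

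Bmp8a and Bmp2 fell in mutant skin, Bmp4 lay higher on every mutant array without passing the test, and Bmp7 split by array. Of the 9 genes 2 were called, both lower, beside 1.6% of all probe sets called lower. The Bmp8a call held when any single array was left out. That of Bmp2 (limma adjusted p = 0.0461) was lost in 5 of those 6 fits. The groups did not overlap for 3 of the 9 genes, beside 20.3% of all probe sets. The median difference of the 9 genes was -0.087, against 0.0247 over all probe sets. In whole skin, fewer cells of a type and less RNA per cell cannot be told apart.

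Bmp8a (Entrez gene 12163) encodes a ligand of the BMP5, BMP6 and BMP7 branch of the family. It read 6.99, 6.90 and 7.37 on the mutant arrays, against 8.25, 8.20 and 8.21 in wild type skin. Every mutant array lay below every wild type array, with mutant replicate 3 the least low. Mutant skin averaged 7.09 ± 0.25 and wild type skin 8.22 ± 0.03 (SD, n = 3 each), a difference of -1.13 (SE 0.12, 95% interval -1.42 to -0.84, limma adjusted p = 0.00359). That puts the mutant level at 45.6% of wild type. The call held when any single array was left out, with differences of -1.28 to -1.04. Without variance moderation it was lost (limma adjusted p = 0.109). Its close relative Bmp8b, looked at after its values were seen, read 4.59 in both groups on average. That lies inside the part of the Y-linked range held by Usp9y alone, so no change of Bmp8b could be seen. How well the probes separate Bmp8a from Bmp8b was not tested.

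Bmp2 (Entrez gene 12156) encodes a ligand expressed in the follicle placode and later in the precursor cells of the hair shaft. It read 8.72, 8.41 and 8.4 on the mutant arrays and 9.75, 9.17 and 9.24 on the wild type arrays. The groups were apart, with mutant replicate 1 the highest of its group and wild type replicate 1 the highest of its own. Means were 8.51 ± 0.18 in mutant and 9.39 ± 0.32 in wild type skin (SD, n = 3 each), a difference of -0.88 (SE 0.17, 95% interval -1.26 to -0.49, limma adjusted p = 0.0461), or 54.5% of the wild type level. Unlike Bmp8a, it was close to the threshold. Omitting any one of the wild type arrays or of mutant replicates 1 and 2 ended the call, with a limma adjusted p of up to 0.175 and differences of -0.98 to -0.69. Without mutant replicate 3 it was -0.82 (limma adjusted p = 0.0225), and without variance moderation the call was lost (limma adjusted p = 0.256).

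Bmp4, the closest relative of Bmp2 and a ligand of the dermal condensate and dermal papilla, showed the opposite sign. It read 10.31, 10.24 and 10.30 on the mutant arrays, against 10, 9.98 and 10.05 on the wild type arrays. The mutant SD was the smallest of the 9 genes, with means of 10.28 ± 0.04 in mutant and 10.01 ± 0.04 in wild type skin (SD, n = 3 each), and the groups did not overlap. The difference of 0.27 (SE 0.07, 95% interval 0.12 to 0.43) did not pass over all probe sets (limma adjusted p = 0.104). Without mutant replicate 3 the same difference of 0.27 passed (limma adjusted p = 0.0413), where 14.2% of all probe sets did and 3 of the 9 genes. Mutant replicate 3, which stood apart in many genes, read within the range of the other mutant arrays here. The 8 dermal papilla markers averaged 7.98, 7.82 and 7.23 on mutant arrays 1, 2 and 3, against 7.11 to 7.24 in wild type skin. None of them was called with all arrays. All 8 were called higher in the fit without mutant replicate 3, the fit in which Bmp4 passed, beside 7.95% of all probe sets. Their part in the Bmp4 difference was not tested.

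Bmp7, another ligand of skin epithelium and mesenchyme, read 8.06, 8.07 and 8.37 on the mutant arrays and 8.33, 8.30 and 8.23 in wild type skin. Mutant replicates 1 and 2 lay below all wild type arrays and mutant replicate 3 above them all. The difference was -0.12 (SE 0.10, limma adjusted p = 0.632), and -0.22 without that array (limma adjusted p = 0.0763).

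**Figure D1:**
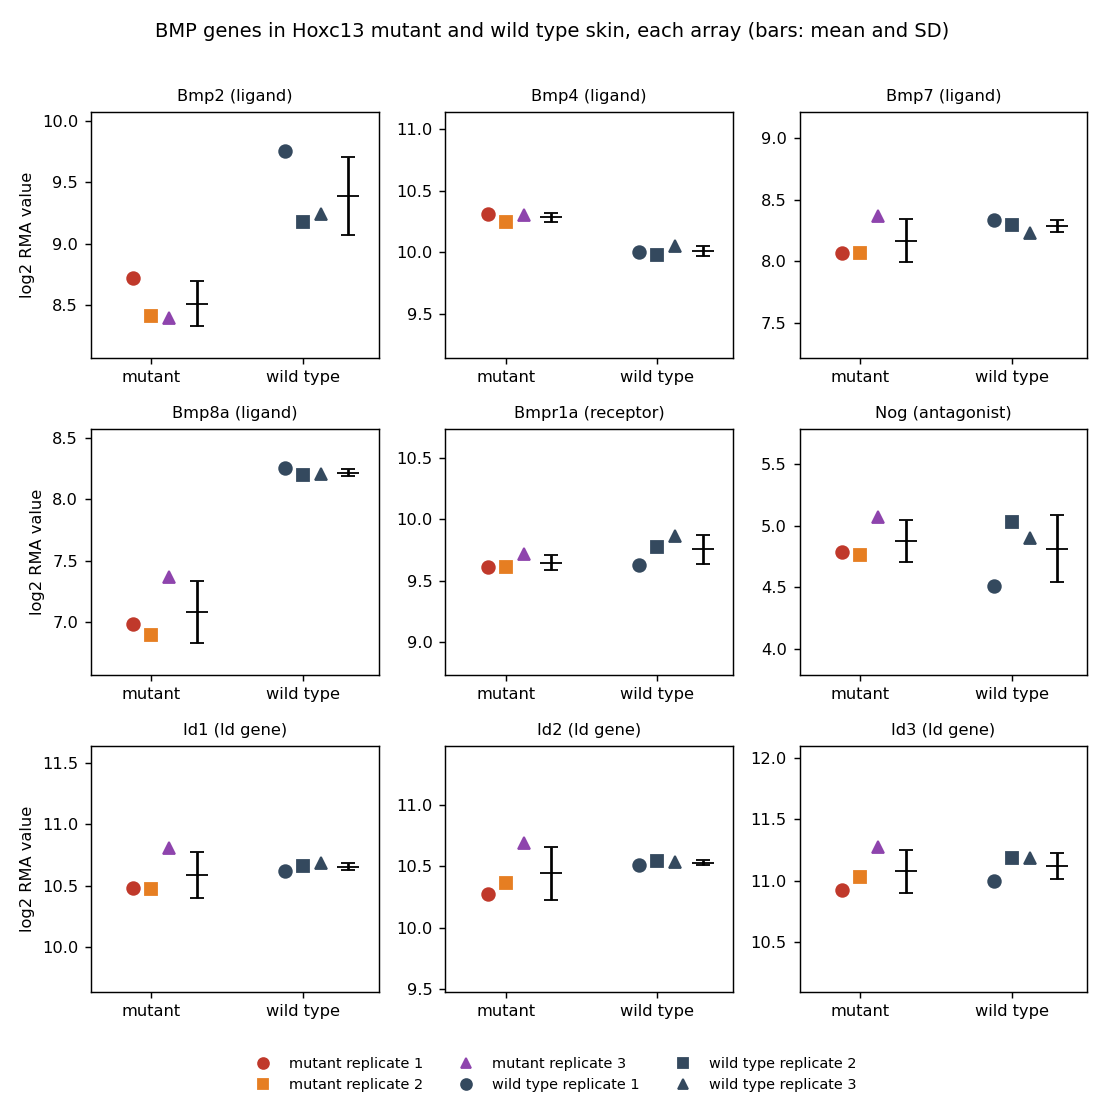
Log2 RMA value (vertical axis, every panel spanning the same height) of the 9 BMP genes on each mutant and wild type array, with the mean and SD (n = 3) beside the points. Bmp8a and Bmp2 are low on all mutant arrays, Bmp4 is a little higher on all of them, and for Bmp7, Id1, Id2 and Id3 mutant replicate 3 lies above the other mutant arrays.

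The receptor and the antagonist gave no call. Bmpr1a encodes the type I receptor needed in the hair matrix. It read 9.61, 9.61 and 9.72 on the mutant arrays against 9.63, 9.77 and 9.87 in wild type skin. The ranges overlapped, with a difference of -0.11 (95% interval -0.30 to 0.09, limma adjusted p = 0.601). Nog, the Noggin gene, read 4.79, 4.76 and 5.07 on the mutant arrays against 4.51, 5.03 and 4.90 in wild type skin. These values reach into the Y-linked range, so the gene is not shown to be above background in either group and its difference of 0.06 (SE 0.15) says little about its transcript. All of them lay above 4.18, where that range comes from Usp9y alone.

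The 3 Id genes, whose products hold cells from differentiating by binding basic helix-loop-helix factors, gave no call with all 6 arrays. That was 0 of 3 with limma, beside 2.08% of all probe sets. At an unadjusted limma p under 0.05 it was also 0 of 3, beside 14.4% of all probe sets. Without variance moderation the limma test called 0 of the 9 genes. Bmp8a and Bmp2 were lost there too, so that fit says nothing particular about the Id genes. Id1 read 10.48, 10.48 and 10.80 on the mutant arrays and 10.62, 10.66 and 10.68 on the wild type arrays. Its mutant values lay on either side of a narrow wild type range. The difference was -0.07 (SE 0.10, 95% interval -0.31 to 0.17). Id2 read 10.28, 10.37 and 10.68 on the mutant arrays, against 10.51, 10.54 and 10.54 in wild type skin. Again mutant replicate 3 lay above and the other mutant arrays below every wild type array, with SDs of 0.21 in mutant and 0.02 in wild type skin. The difference was -0.09 (SE 0.11, 95% interval -0.34 to 0.17). Id3 read 10.93, 11.03 and 11.27 on the mutant arrays and 11.0, 11.18 and 11.18 in wild type skin. Here mutant replicate 2 lay inside the wild type range, and the difference was -0.05 (SE 0.11, 95% interval -0.29 to 0.20). For RNA of whole skin, the lower ends of these intervals exclude decreases of the size estimated for Bmp2 and Bmp8a, but not small ones. A change confined to some of the cells was not measured and is not excluded.

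Ligand and response changes were set side by side on each mutant array as deviations from the wild type mean. The median deviation of the 4 ligands was -0.44, -0.59 and -0.38 on mutant arrays 1, 2 and 3. That of the 3 Id genes was -0.19, -0.16 and 0.15. The ligand median was thus the lower on each mutant array, by 0.25, 0.43 and 0.53, while the Id median changed sign on mutant replicate 3. Between groups the median difference was -0.497 for the ligands and -0.069 for the Id genes, with a gap of -0.428 (SD 0.144 over the 3 mutant arrays). This is a description, since the genes were chosen by name with earlier results known. The ligand median lies between 2 genes that fell, one that did not pass and one of the opposite sign, so it stands for no single ligand.

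Mutant replicate 3 read highest of the mutant arrays for 7 of the 9 genes, where 44.7% of all probe sets did so. The exceptions were Bmp2 and Bmp4. For Id1, Id2 and Id3 it lay 0.33, 0.36 and 0.29 above the mean of the other mutant arrays, and for Bmp8a 0.43 above. Bmp7, Id1 and Id2, 3 of the 9 genes, had mutant replicates 1 and 2 below and mutant replicate 3 above every wild type array, a pattern looked for after the values were seen and held by 7.01% of all probe sets. Without that array Id1 and Id2 were at -0.18 and -0.21 with intervals of -0.33 to -0.02 and -0.37 to -0.05, and neither passed (limma adjusted p = 0.117 and 0.0852). Id3 was then at -0.14 (limma adjusted p = 0.295). That fit rests on 2 mutant arrays that correlate at 0.997 and may understate the spread between mutant samples.

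**Figure D2:**
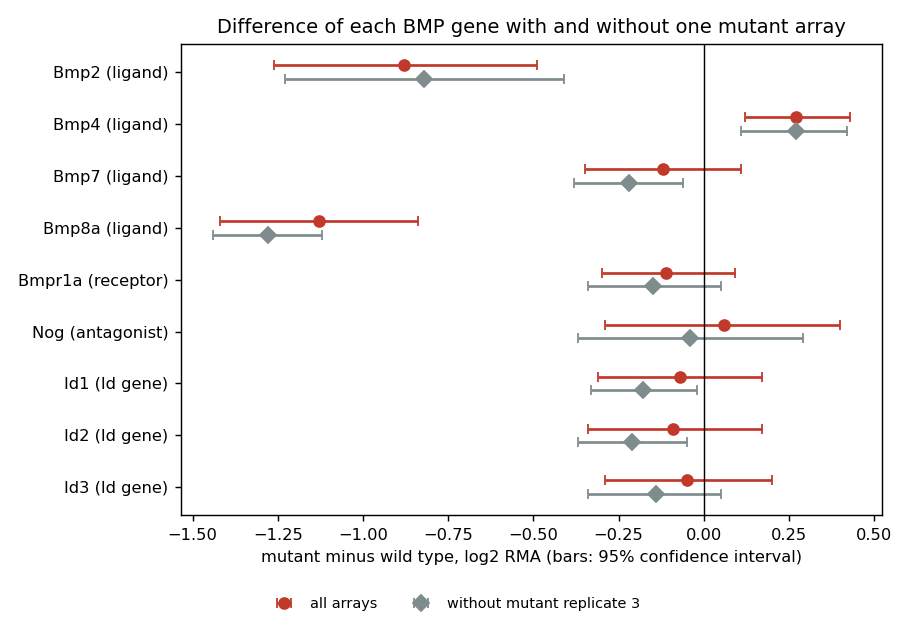
Difference of each BMP gene, mutant minus wild type in log2 RMA (horizontal axis), with 95% intervals, for all arrays (circles) and without mutant replicate 3 (diamonds). The intervals of Bmp8a and Bmp2 lie well below 0 in both fits and that of Bmp4 above 0, while those of Bmp7, Id1 and Id2 cross 0 with all arrays and lie just below it without mutant replicate 3.

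Markers of some other cell types moved along with parts of this pattern. The 6 melanocyte markers averaged 10.18, 10.03 and 10.77 on mutant arrays 1, 2 and 3, against 10.67 to 10.87 in wild type skin. The 7 inner root sheath markers averaged 12.38, 12.45 and 12.88, against 13.19 to 13.28. The 3 sebaceous gland markers averaged 11.30, 11.65 and 11.94, against 11.81 to 11.99. With all arrays 2 of the 7 inner root sheath markers were called lower and none of the melanocyte or sebaceous gland markers. Without mutant replicate 3, 5 of the 6 melanocyte, 4 of the 7 inner root sheath and 2 of the 3 sebaceous gland markers were called lower. In that fit 6.23% of all probe sets were called lower. On these 3 lists mutant replicate 3 was nearest to wild type, as it was for Bmp8a, and their part in the results for Bmp7, Bmp8a and the Id genes was not tested. The 6 outer root sheath and companion layer markers averaged 11.35, 11.32 and 11.60, against 11.26 to 11.28. They were highest on mutant replicate 3, as were the epidermal markers, Bmp7 and the Id genes. Skeletal muscle, adipocyte, endothelium and immune lists were lowest of the mutant arrays there. The part of these lists was not tested either. The 7 hair shaft markers, all called lower, were low on all mutant arrays and lowest on mutant replicate 3 (5.44). Their part in the decrease of Bmp2 and Bmp8a was not tested. By its mean over the 6 arrays the dimmest marker of any list was Sox2 of the dermal papilla (5.44), above the Y-linked range.

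**Figure D3:**
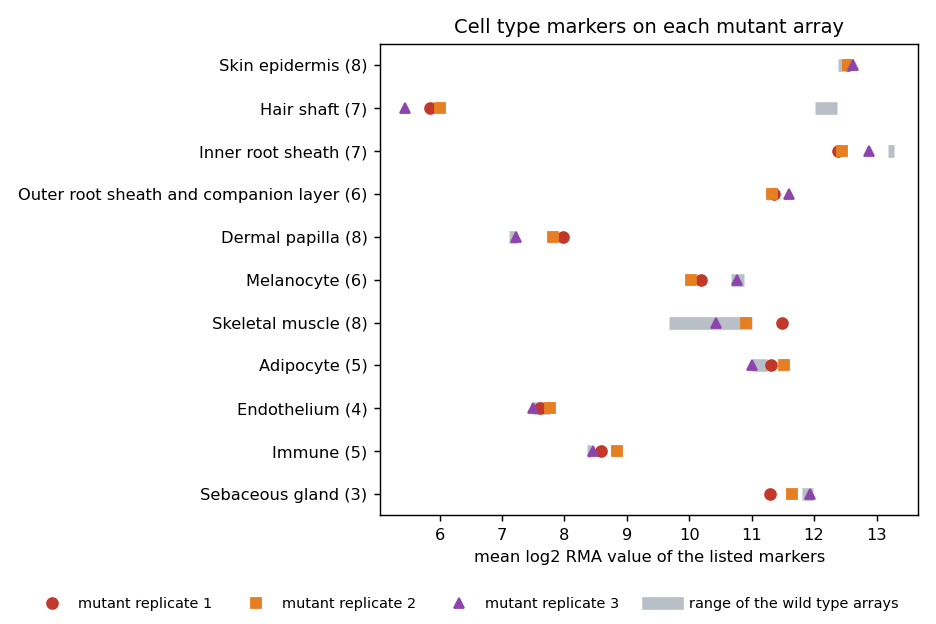
Mean log2 RMA value (horizontal axis) of each list of cell type markers, with the number measured in brackets, on each mutant array (points) and as the range of the wild type arrays (bars). Hair shaft markers are far below wild type on all mutant arrays, and dermal papilla, melanocyte and sebaceous gland markers depart from the wild type range on mutant replicates 1 and 2 alone.

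A wider list of BMP genes, of which 41 of 45 were measured, gave 1 call (2.44%), close to the 2.08% of all probe sets. Foxn1, the winged helix factor lost in nude mice and dependent on BMP receptor signalling in the hair matrix, fell by 1.21 (SE 0.10, limma adjusted p = 8.78e-04), with means of 6.89 ± 0.16 in mutant and 8.10 ± 0.11 in wild type skin (SD, n = 3 each). This call held when any single array was left out and was lost without variance moderation. The other 40 did not pass, 9 of 41 (22.0%) had an unadjusted p under 0.05 beside 14.4% of all probe sets, and the list median was 0.0573. For 8 of the 41 (Bmp5, Bmp8b, Bmp15, Gdf5, Bmpr1b, Sost, Cer1 and Smad9) both group means lay within the Y-linked range, so these are not shown to be above background. For all of these but Bmpr1b at least 1 group mean lay above 4.18, the top of that range without Usp9y. Mutant replicate 3 read highest of the mutant arrays for 22 of the 41 genes, beside 44.7% of all probe sets. By class it did so for 8 of 9 response genes, as for the Id genes of the shorter list. It did so for 3 of 7 other ligands, 2 of 6 other receptors, 5 of 13 antagonists and modulators and 4 of 6 transducers. The split pattern of Id1 and Id2 was found in 2 of the 41 genes (4.88%), beside 7.01% of all probe sets. These were Dlx3 and the fourth family member Id4, looked at after its values were seen, at 11.56, 11.38 and 11.96 on the mutant arrays against 11.72, 11.64 and 11.78 in wild type skin.

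Bambi, Smad6 and Smad7 are inhibitors of the pathway that BMP itself induces, and none of them was called with all arrays. This grouping was not one of the fixed classes of the list. Antagonists as a class did not share one sign. The 13 antagonists and modulators, Bambi among them, had differences of -0.44 to 0.38 with a median of 0.01, and Nog was at 0.06. Smad7 was not among the 2 transducers with the smallest p and is named beyond that rule. Bambi, a decoy receptor, read 10.24, 10.31 and 10.68 on the mutant arrays against 10.81, 10.85 and 10.89 in wild type skin (-0.44, SE 0.12, limma adjusted p = 0.136). Its groups did not overlap, as in 20.3% of all probe sets. Smad6, an inhibitory Smad, read 8.47, 8.52 and 9.12 on the mutant arrays against 9.15, 9.20 and 9.23 in wild type skin (-0.49, SE 0.17, limma adjusted p = 0.232). Smad7, the other inhibitory Smad, read 8.93, 8.83 and 9.55 on the mutant arrays against 9.59, 9.32 and 9.39 in wild type skin, with overlapping ranges (-0.33, SE 0.18, limma adjusted p = 0.459). When mutant replicate 3 was omitted, Bambi was at -0.58 and Smad6 at -0.70 (limma adjusted p = 0.00229 and 7.46e-04). In that fit 14.2% of all probe sets passed. In Bambi and Smad6 mutant replicate 3 lay closest to wild type but still below it, and in Smad7 it lay inside the wild type range. Response genes did not share one sign with all arrays. Msx1 (0.26), Atoh8 (0.16), Hey1 (0.11) and Gata3 (0.07), given to complete that class, were positive and not called. Id4, Msx2, Dlx3, Foxn1 and Lef1 were negative.

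Of the remaining classes none had a called gene with limma on all 6 arrays. Of 7 other ligands 1 had an unadjusted p under 0.05, Gdf10, a secreted factor related to Bmp3, at 0.57 (limma adjusted p = 0.214), followed by Bmp10 at -0.16. Of 6 other receptors it was 2, the type II receptor gene Acvr2b at 0.39 (limma adjusted p = 0.158) and the type I receptor gene Acvr1 at 0.20. Of 13 antagonists and modulators it was 2, Bambi and the follistatin-like gene Fstl1 at 0.38 (limma adjusted p = 0.114). Of 6 transducers it was again 2, Smad6 and the shared partner Smad4 at 0.17 (limma adjusted p = 0.30). Acvr2b, Acvr1 and Smad4, picked by their p, had positive differences and Bmpr1a a negative one, none of them called. The receptor genes left, given to complete the class, were Bmpr2 (-0.10), Bmpr1b (0.00), Acvrl1 (0.08) and Acvr2a (0.09), also not called.

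Without mutant replicate 3 the wider list gave 10 calls, 3 higher and 7 lower, beside 7.95% of all probe sets called higher and 6.23% called lower. The 9 that joined Foxn1, named here because of those values, were Gdf10, Chrdl1 and Fstl1 on the higher side and Bambi, Smad6, Smad7, Msx2, Dlx3 and Lef1 on the lower. Msx2, a homeobox target of BMP in the matrix, was then at -0.47 and the homeobox gene Dlx3 at -0.43 (limma adjusted p = 0.0145 and 0.0299). With all arrays they were at -0.36 and -0.10. For Dlx3 mutant replicate 3 lay above every wild type array. Lef1, the Wnt effector, and Smad7 were at -0.66 and -0.55. Chrdl1, a chordin-like antagonist, was at 0.47.

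**Figure D4:**
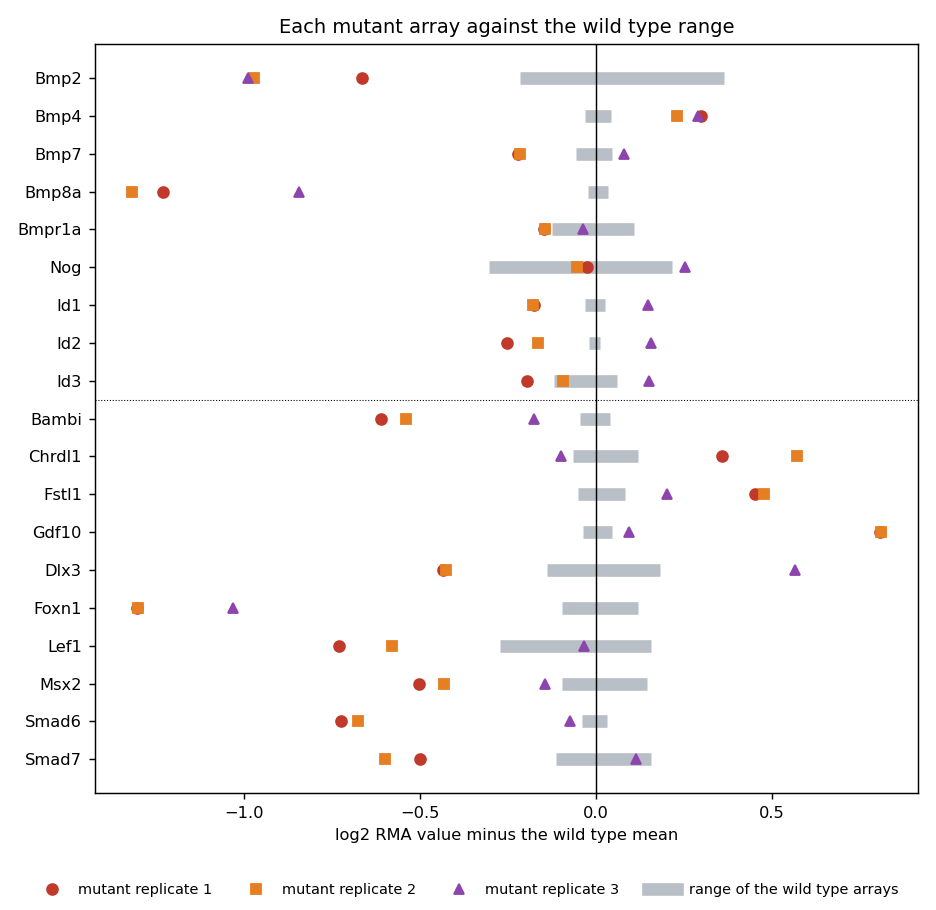
Log2 RMA value of each mutant array minus the wild type mean (horizontal axis) for the 9 BMP genes (above the dotted line) and the 10 genes of the wider list called without mutant replicate 3 (below it), with grey bars for the range of the wild type arrays. Bmp2, Bmp4, Bmp8a, Bambi, Fstl1, Gdf10, Foxn1, Msx2 and Smad6 keep all mutant arrays on the same side of the wild type range, while mutant replicate 3 lies inside or beyond the opposite end of that range for Bmp7, Bmpr1a, Id1, Id2, Id3, Chrdl1, Dlx3, Lef1 and Smad7.

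Genes with profiles most like those of Bmp8a and Bmp2 were found by the root mean square difference over the 6 arrays after each gene was centred on its own mean. Closest to Bmp8a were Lrrc15, encoding a leucine-rich repeat membrane protein (0.0509), Slc38a3, an amino acid transporter gene (0.075), and Foxn1 (0.085). Their differences were -1.12, -1.12 and -1.21, beside -1.13 for Bmp8a. Such likeness follows from picking genes by profile over the same arrays and is no separate result. Closest to Bmp2 were the cell adhesion gene Cadm4 (0.136), Rab3ip (0.147) and Crip3 (0.173), at -0.99, -0.67 and -0.81 beside -0.88, with Crip3 near the Y-linked range in mutant skin (mean 4.93). The Bmp2 profile thus had no neighbour as close as those of Bmp8a. Bmp2 also spread more between wild type arrays (SD 0.32, against 0.03 for Bmp8a), and the part of that spread was not tested.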

How the data were processed

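Per the labels' protocols, skin RNA was amplified from oligo(dT) primers in one cycle, biotin-labelled and read on Affymetrix arrays. Values are the authors' log2 RMA levels, with RMA named in the submitters' processing notes. The version, the array's probe positions and a genome build are not given in the sources used here. Arrays have no counts or depth, and their number limits the precision. RMA compresses differences near background, and no detection calls were used.

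After removal of 64 control probe sets 16331 remained for testing, of which 15644 carried 1 gene symbol in the platform annotation and 687 none. Each gene had 1 probe set. Groups followed the titles. The test of mutant against wild type was limma's (version 3.58.1, R 4.3.3; lmFit, then eBayes, two-sided, no block or filter), adjusted over all probe sets at 0.05, and the script was tested on simulated data. Figures used Python 3.11.15 and matplotlib 3.10.9. Genes named were all listed BMP genes, called genes of a wider list or the 2 with the smallest p in a class without a call, Hoxc13, and the 3 closest profiles of each called gene. Genes named beyond this, such as Id4 and Bmp8b, are said to be so. The members and lists were chosen with earlier results of these data known. Alternatives were a filter on low levels, repeated quantile normalisation, centring, a trended robust prior, array weights, a replicate block, no moderation and leaving out each array. Without moderation the test was an ordinary t-test on the lmFit fit.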

Additional observations from a re-analysis of the deposited data

How the results depend on the processing

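The count of 2 called among the 9 BMP genes was the same with the filter on low levels, repeated quantile normalisation, centring, the trended robust prior and the replicate block. It was 3 with array weights, which gave mutant replicate 3 a weight of 0.234 against 1.23 to 1.44 for the others, 0 without variance moderation, and 1 to 3 when single arrays were left out. On the wider list the count of 1 became 9 with array weights and 0 without moderation, and was 1 to 10 when single arrays were left out, the 10 without mutant replicate 3. Over all probe sets the 339 calls became 1880 with array weights, 197 with the replicate block, 84 without moderation and 151 to 2316 when single arrays were left out, the 2316 without mutant replicate 3. The gap between ligand and Id medians ran from -0.521 to -0.298 under the same omissions. Among the genes described, apart from those given only to complete a class, sign changes were found in 5, none of them called with all arrays. Nog was at -0.01 with array weights and between -0.09 and 0.17 when single arrays were left out, Dlx3, called without mutant replicate 3, between -0.43 and 0.07, Id3 between -0.14 and 0.03, and Id4 between -0.24 and 0.05. Bmp8b was at -0.03 with array weights and between -0.04 and 0.04 under such omissions. The cause was not tested. The filter, set at a mean level of 5.50, removes Nog. Replicate numbers were not treated as pairs, since deviations of same-numbered arrays correlated at 0.036, -0.119 and -0.0873, and under the block Bmp2 and Bmp8a remained called (limma adjusted p = 0.0129 and 0.0120). Nearness to background limits Nog and 8 genes of the wider list, Bmp8b among them, with the background range taken to include Usp9y.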
